A study of Mus musculus with 8 samples.

Results

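The endogenous miRNAs of mouse 3T3 fibroblasts were compared between cells given the U6-MosIR plasmid and cells given the CAG-EGFP-MosIR plasmid, which express long dsRNA hairpins of *Mos* sequence in 2 different ways. The comparison took the 2 small RNA libraries of each plasmid, 4 of the 8 libraries of the series, and was chosen by the plasmid names alone. The other 4 libraries carry a Lin28 hairpin in the same pair of designs, CAG-EGFP-Lin28IR and U6-Lin28aIR, and served to estimate the spread and as a point of reference. The paper marks a *Lin28b* segment in the CAG-EGFP-Lin28IR hairpin and names the U6 plasmid for *Lin28a*, so their hairpin sequences may differ. NIH3T3 is an immortalised line grown from mouse embryo fibroblasts. The cells of all 8 libraries were transiently transfected with 1 hairpin plasmid, and total RNA was taken after 48 h. The duplicates came from separately transfected wells of 1 line, so the p-values below measure the spread between wells. The sample labels give 250 ng of plasmid per well, the paper's methods give another dose and plate, and no library of untransfected cells was analysed here.

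CAG is a strong promoter used by RNA polymerase II in most cell types, and the CAG-EGFP plasmids place the hairpin in the 3′ untranslated region of an EGFP reporter, with long single strands on both sides of the stem. U6 is the promoter of a small nuclear RNA gene. It is used by RNA polymerase III, and its hairpin transcript has few unpaired bases at its end and a shorter stem. The promoter, the reporter, the ends of the hairpin and its length therefore changed together and cannot be told apart. In mammals the RNase Dicer cuts both the precursors of miRNAs and long dsRNA, and Argonaute proteins take up both kinds of product. A mature miRNA finds its target mRNAs mainly through its seed, bases 2 to 8. Whether the way a hairpin is expressed goes with a difference in the miRNAs that share this machinery is the question this comparison answers.

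Each Mos library held between 14090884 and 16228597 perfectly mapped reads of all lengths, and between 1873244 and 3029368 counts on mature miRNAs. A count of 0 in a Mos library allowed a level of up to 0.185 to 0.213 RPM, that is 3 counts per library and counting error only, where RPM is reads per 1000000 perfectly mapped reads. Of 1966 mature names listed, 918 had a count in at least 1 Mos library and 360 passed the filter on low counts. Markers of the fibroblast and mesenchymal lineage were present, with all 12 listed miRNAs tested and summed levels of 49284 and 59882 RPM with CAG-EGFP-MosIR and 77687 and 72713 RPM with U6-MosIR. Markers of other cell types were at or near the limit of detection, apart from miR-9-5p and miR-203-3p. The CAG-EGFP-MosIR duplicates stood apart from each other. Across the 96 miRNAs with a mean of at least 100 RPM, the log2 ratio of replicate 1 to replicate 2 had an SD of 0.42 with CAG-EGFP-MosIR, against 0.24 with U6-MosIR, 0.25 with CAG-EGFP-Lin28IR and 0.28 with U6-Lin28aIR. For let-7 and some other miRNAs, values are also given with 1 of the CAG-EGFP-MosIR libraries left out. Most other values are given only with both, although 46 of the 80 miRNAs named changed sign when some Mos library was left out.

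The mature sequences of the miRNAs that lay farthest apart between the plasmids follow, among those with a mean of 10 RPM or more and no overlap, since their base composition is described below. They are those of RefSeq on GRCm38, 5′ to 3′, with the seed in capitals. The first set was higher with U6-MosIR.
miR-190a-5p: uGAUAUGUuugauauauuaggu
miR-542-3p: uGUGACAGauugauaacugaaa
miR-340-5p: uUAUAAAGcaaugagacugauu
miR-450b-5p: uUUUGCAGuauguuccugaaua
miR-101a-3p: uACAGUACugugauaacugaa
miR-19a-3p: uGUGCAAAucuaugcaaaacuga
miR-32-3p: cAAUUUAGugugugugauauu

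The second set was lower with U6-MosIR, in the order of their changes.
miR-5126: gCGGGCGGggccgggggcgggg
miR-3535: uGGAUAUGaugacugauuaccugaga
miR-130b-3p: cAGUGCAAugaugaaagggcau
miR-181a-5p: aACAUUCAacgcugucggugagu
miR-214-3p: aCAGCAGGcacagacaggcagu
miR-29b-1-5p: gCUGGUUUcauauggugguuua
miR-125a-3p: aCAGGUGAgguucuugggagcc
miR-423-5p: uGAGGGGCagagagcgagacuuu

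These 15 sequences have 15 different seeds, so neither end was made up of a seed family. The third set shows the let-7 members that differed most between the CAG-EGFP-MosIR duplicates, together with miR-98-5p and let-7b-5p at the 2 ends of the family's changes. All of them share the seed GAGGUAG.
let-7f-5p: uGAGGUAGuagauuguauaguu
let-7a-5p: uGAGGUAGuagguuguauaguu
let-7c-5p: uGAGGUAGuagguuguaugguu
miR-98-5p: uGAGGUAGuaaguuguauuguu
let-7b-5p: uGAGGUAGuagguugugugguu

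The U6-MosIR libraries held a larger share of miRNA reads. Mature miRNA counts made up 13.2% and 16.5% of the perfectly mapped reads with CAG-EGFP-MosIR and 18.7% and 18.7% with U6-MosIR. Both U6-MosIR libraries lay above both CAG-EGFP-MosIR libraries, and the means were 14.8% ± 2.32 (SD, n = 2) and 18.7% ± 0.034 (SD, n = 2), a difference of 3.85 percentage points. Reads of 21–23 nt, the length of Dicer products, made up 11.6% and 14.6% with CAG-EGFP-MosIR and 15.3% and 15.5% with U6-MosIR, a difference of 2.28 percentage points, again with no overlap. Reads of 18–30 nt made up 23.2% and 26.9% with CAG-EGFP-MosIR and 25.1% and 26.0% with U6-MosIR, so that this wider class overlapped and its means differed by 0.521 percentage points. Wilson 95% intervals of these shares were at most 0.0458 percentage points wide in the Mos libraries, and they cover counting error only.

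Within the 18–30-nt class the libraries were further apart. Reads of 21–23 nt were 50.1% and 54.2% of it with CAG-EGFP-MosIR and 60.9% and 59.4% with U6-MosIR. There were 56.8 and 61.3 miRNA counts per 100 reads of 18–30 nt with CAG-EGFP-MosIR, and 74.3 and 71.9 with U6-MosIR. The plasmids were thus separated within the class, while the share of the class in the library overlapped. A two-sided exact permutation test of 2 libraries against 2 has 6 assignments and cannot give a p under 0.333, and that was its value for the miRNA share, for the 21–23-nt share and for both shares of the 18–30-nt class. A design of this size cannot reach 0.05. The 18–30-nt share gave an exact permutation p of 1.

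**Figure D1:**
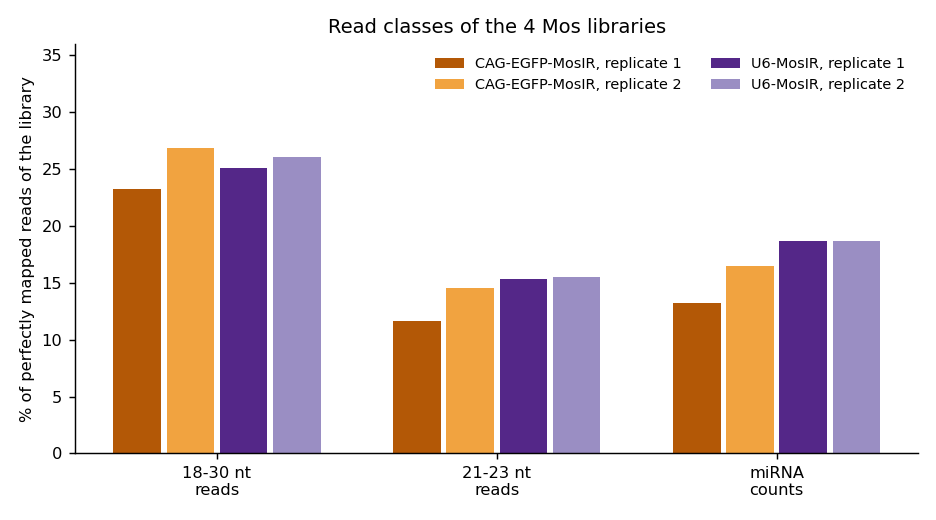
Share of the perfectly mapped reads of each Mos library, in %, taken by reads of 18-30 nt, reads of 21-23 nt and counts on mature miRNAs; 1 bar per library and no error bars. The miRNA bars of U6-MosIR, both 18.7%, stand above those of CAG-EGFP-MosIR at 13.2% and 16.5%, whereas the 18-30-nt bars overlap.

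Of the difference of 3.85 percentage points in the miRNA share, miR-21a-5p alone held 1.82 points (47.2%), and many other miRNAs were higher with U6-MosIR too. In RPM, 154 of the 360 tested miRNAs (42.8%) were higher in both U6-MosIR libraries than in both CAG-EGFP-MosIR libraries and 14 (3.89%) were lower. The median log2 fold change of all tested miRNAs was 0.27 with the deposited library sizes and 0.01 after TMM normalisation, which takes out a shift shared by most miRNAs. The changes that follow are therefore relative to the other miRNAs and are given with normalised CPM, counts scaled to the same number of miRNA counts per library after TMM.

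On that scale no miRNA passed the test. With edgeR's quasi-likelihood test 0 of 360 miRNAs (0%) had an adjusted p under 0.05, and 18 (5%) had an unadjusted p under 0.05, 9 higher and 9 lower with U6-MosIR. Both U6-MosIR libraries were above both CAG-EGFP-MosIR libraries for 51 miRNAs (14.2%) and below them for 42 (11.7%). Among the 188 miRNAs with a mean of at least 10 RPM these numbers were 20 and 21, the log2 fold changes ran from -0.92 to 0.67, and 182 stayed within 1.5-fold in either direction. The SE of a log2 fold change in this set had a median of 0.21. The 1 call made by DESeq2, by edgeR without the filter and by edgeR at 10 RPM or more was miR-5126 each time. Without CAG-EGFP-MosIR replicate 1 there were 8 calls, in a fit in which the lone CAG-EGFP-MosIR library was assumed to vary like the other groups.

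Among the miRNAs at 10 RPM or more, the one farthest down with U6-MosIR was miR-5126, at chr1:84695890-84695911 on the plus strand, antisense to an exon of *Dner*. Its normalised CPM was 358 and 416 with CAG-EGFP-MosIR and 199 and 210.3 with U6-MosIR. The 2 plasmids did not overlap, and the log2 fold change was -0.92 (SE 0.20, edgeR adjusted p = 0.0633), 1.89-fold higher with CAG-EGFP-MosIR. Over the alternatives its adjusted p ran from 0.000311 to 0.751. All bases of its mature sequence are G or C. Only 746 and 998 counts with CAG-EGFP-MosIR and 573 and 573 with U6-MosIR lay behind these values.

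Next came miR-3535, which overlaps a snoRNA gene in an intron of the nucleolin gene *Ncl* on the same strand, at chr1:86352062-86352087. Reads of the snoRNA and of the miRNA cannot be told apart there. Its level was 11401 and 12232 CPM with CAG-EGFP-MosIR and 8424 and 6671 CPM with U6-MosIR, a log2 fold change of -0.65 (SE 0.24, edgeR adjusted p = 0.531). These 2 were also the only miRNAs at 10 RPM or more that were lower in both U6-MosIR libraries in RPM, where the general shift ran the other way. For miR-5126 the RPM values were 52.6 and 67.8 against 35.3 and 40.7, and for miR-3535 they were 1674 and 1991 against 1492 and 1290.1.

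The other 6 at this end had smaller changes. miR-130b-3p belongs to the miR-130 and miR-301 family and lies in an intron on chromosome 16. It had 163 and 122 CPM with CAG-EGFP-MosIR and 113 and 104 CPM with U6-MosIR (log2 fold change -0.39, SE 0.21). miR-181a-5p, best known from lymphocyte signalling, had 1116 and 1119 CPM with CAG-EGFP-MosIR and 879.6 and 850.3 CPM with U6-MosIR (-0.37, SE 0.18). Its duplicates were close to each other with both plasmids. miR-214-3p comes from the mesenchymal transcript *Dnm3os*, which also carries miR-199a-5p and miR-199a-3p, and had 1087 and 943 CPM with CAG-EGFP-MosIR and 741 and 833 CPM with U6-MosIR (-0.37, SE 0.19). The passenger strand miR-29b-1-5p, with 133 and 170.2 against 114 and 125 CPM, differed by -0.34 (SE 0.23). miR-125a-3p, with 202 and 238 against 179 and 173 CPM, and miR-423-5p, with 493 and 699 against 479 and 476 CPM, both had a log2 fold change of -0.32. For miR-423-5p the gap between the plasmids was small beside that between the CAG-EGFP-MosIR duplicates. Adjusted p for these 6 ran from 0.908 to 0.993.

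At the other end, 8 miRNAs were higher in both U6-MosIR libraries by log2 fold changes of 0.45 to 0.67. miR-190a-5p, in an intron of *Tln2* at chr9:67236700-67236721, had 83.9 and 66.7 CPM with CAG-EGFP-MosIR and 115 and 124 CPM with U6-MosIR (log2 fold change 0.67, SE 0.22, edgeR adjusted p = 0.303), 1.59-fold. miR-340-5p, in an intron of *Rnf130* at chr11:50069720-50069741, had 497 and 548 CPM with CAG-EGFP-MosIR and 907 and 736 CPM with U6-MosIR (0.65, SE 0.19, edgeR adjusted p = 0.303). Both lie inside protein-coding genes, on the strand of their hosts. The levels were set apart between plasmids, but the distance was about 3 SE and did not pass the adjustment.

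miR-542-3p and miR-450b-5p come from 1 cluster on the X chromosome that also holds miR-322, miR-503 and miR-351. miR-542-3p had 223 and 189 CPM with CAG-EGFP-MosIR and 388 and 261 CPM with U6-MosIR (log2 fold change 0.66, SE 0.21). miR-450b-5p had 150.1 and 132 CPM with CAG-EGFP-MosIR and 244 and 199 CPM with U6-MosIR (0.65, SE 0.20). The edgeR adjusted p was 0.303 for both. Of the 12 tested miRNAs of this cluster, between chrX:53048008 and chrX:53054327, 5 were higher in both U6-MosIR libraries, 0 were lower in both and 9 had a positive log2 fold change, with a median of 0.23, beside 14.2% higher, 11.7% lower and 190 of 360 positive over all tested miRNAs. The 5 are both arms of miR-450b, miR-450a-5p, miR-450a-1-3p and miR-542-3p, and they are at most 36.4% G and C. The arms of miR-322, miR-503 and miR-351, hairpins of the same cluster, overlapped between the plasmids. The cluster was looked at after these values were seen.

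miR-101a-3p, which targets the Polycomb gene *Ezh2* in many cells, had 736 and 671 CPM with CAG-EGFP-MosIR and 1169 and 814 CPM with U6-MosIR (log2 fold change 0.50, SE 0.20). miR-19a-3p, of the growth-promoting miR-17-92 cluster, had 378 and 241 CPM with CAG-EGFP-MosIR and 462 and 407 CPM with U6-MosIR (0.49, SE 0.22). Its CAG-EGFP-MosIR duplicates differed by more than the nearer pair of libraries of the 2 plasmids. miR-32-3p, the minor arm of a hairpin in an intron of *Tmem245*, had 59.5 and 56.7 against 78.3 and 80.4 CPM (0.45, SE 0.21). miR-135b-5p had 104 and 84.2 against 136 and 121 CPM (0.45, SE 0.22). For these 4 the adjusted p ran from 0.725 to 0.908.

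**Figure D2:**
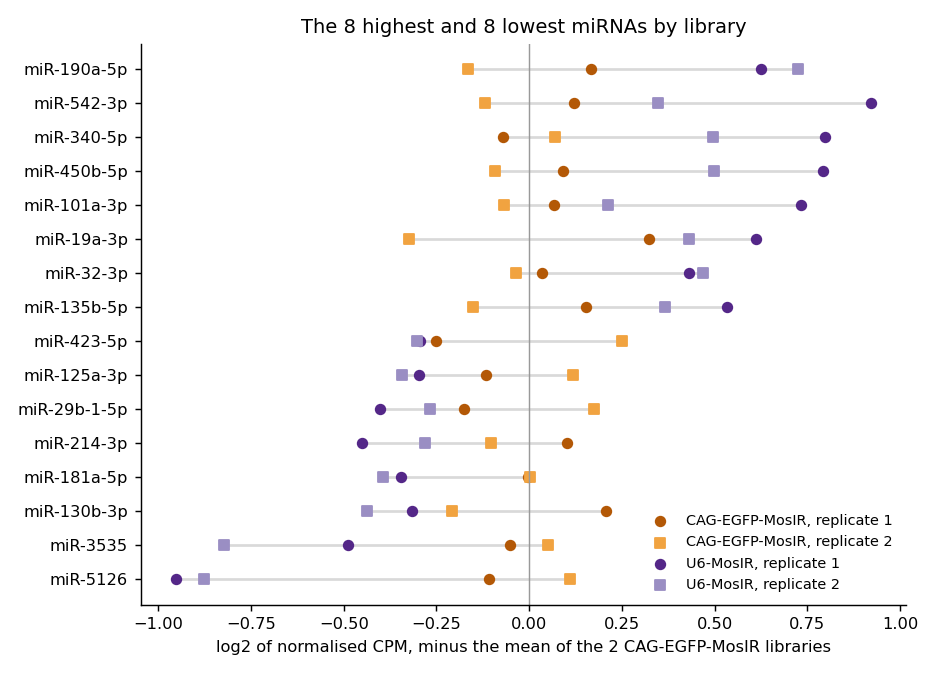
log2 normalised CPM of each Mos library for the 8 highest and 8 lowest miRNAs by fold change, expressed at 10 RPM or more on average and not overlapping between plasmids, minus the mean of the 2 CAG-EGFP-MosIR libraries; 1 point per library. The U6-MosIR points of miR-5126 lie farthest from its CAG-EGFP-MosIR points (log2 fold change -0.92), and those of miR-423-5p nearly touch them.

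Base composition ran along the order of the changes. Of the 188 miRNAs with at least 10 RPM, 168 matched a RefSeq sequence. The 18 of them that were higher in both U6-MosIR libraries had a median of 36.4% G and C and a range of 22.7% to 45.5%. The 20 that were lower in both had a median of 49.0% and a range of 31.8% to 100%, and the 130 that overlapped had a median of 45.5%. In the class under 35% G and C, 21 miRNAs had a median log2 fold change of 0.22, and 8 were higher and 2 lower in both U6-MosIR libraries. From 35% to under 45%, 56 miRNAs had a median of 0.07, with 9 higher and 2 lower. From 45% to under 55%, 64 miRNAs had a median of -0.05, with 1 higher and 11 lower. At 55% and above, 27 miRNAs had a median of -0.06, with 0 higher and 5 lower.

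Across these 168 miRNAs, which share the 4 libraries and are no independent replicates, Pearson's r between G and C content and the log2 fold change was -0.54 and Spearman's rho -0.51. Without miR-5126 r was -0.47. The sign of r did not rest on 1 library. It was -0.35, -0.48, -0.33 and -0.31 in the 4 pairings of a U6-MosIR with a CAG-EGFP-MosIR library, which share libraries with each other. The class at 55% and above did depend on the CAG-EGFP-MosIR library. Its median log2 ratios for U6-MosIR replicates 1 and 2 were -0.04 and 0.03 over CAG-EGFP-MosIR replicate 1. Over CAG-EGFP-MosIR replicate 2 they were -0.18 and -0.18. In this class the CAG-EGFP-MosIR duplicates themselves differed by a median of -0.21, replicate 1 over replicate 2. Between the duplicates r was -0.06 with CAG-EGFP-MosIR and -0.19 with U6-MosIR. For the Lin28 hairpin, in libraries not used for Mos, r was -0.13, and in its 4 pairings it ran from -0.28 to 0.08. The Lin28 medians in the same classes, from low to high G and C content, were 0.13, -0.003, -0.02 and -0.10. The part of library preparation in this order was not tested.

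**Figure D3:**
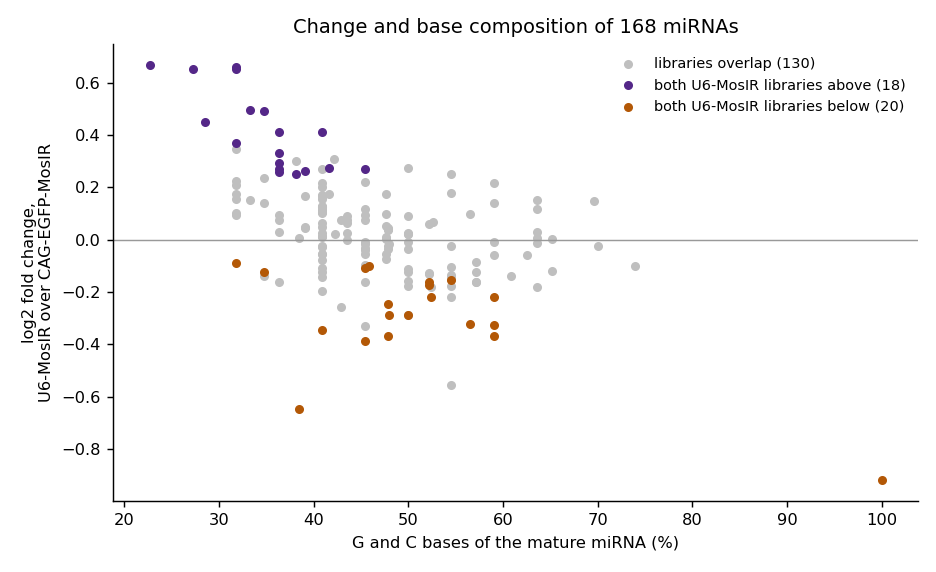
log2 fold change of U6-MosIR over CAG-EGFP-MosIR against the G and C content of the mature sequence, in %, for 168 miRNAs with a mean of at least 10 RPM; colours mark the 18 with both U6-MosIR libraries above, the 20 with both below and the 130 that overlap. The values fall from left to right, with miR-190a-5p at 22.7% on top and miR-5126 at 100% lowest.

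The most abundant miRNA, miR-21a-5p, accounted for 26.7% and 27.3% of the miRNA counts with CAG-EGFP-MosIR and for 33.5% and 28.9% with U6-MosIR. It is a growth-associated miRNA of fibroblasts, encoded at chr11:86584120-86584141 within an annotated exon of *Vmp1*. Its level was 240353 and 276072 CPM with CAG-EGFP-MosIR and 353183 and 279623 CPM with U6-MosIR. Both U6-MosIR libraries were higher, but replicate 2 exceeded the nearest CAG-EGFP-MosIR library only narrowly, and the log2 fold change was 0.29 (SE 0.24, edgeR adjusted p = 0.993). The exact permutation p for its share of counts was 0.333. The 10 most abundant miRNAs together held 57.0% and 58.7% of miRNA counts with CAG-EGFP-MosIR and 61.5% and 60.5% with U6-MosIR.

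The other 9 of the top 10 overlapped between the plasmids. miR-31-5p, a fibroblast miRNA, had 58206 and 52453 CPM with CAG-EGFP-MosIR and 44002 and 58852 CPM with U6-MosIR. miR-125b-5p, the mammalian relative of lin-4, had 36799.8 and 30417 against 26766 and 35405 CPM. miR-26a-5p had 29325 and 37132 against 36858 and 32587 CPM. In each of these the duplicates of a plasmid were farther apart than the means of the plasmids. miR-29a-3p, which represses collagen genes, had 26612 and 17548 against 20009.8 and 23358 CPM. The remaining 5 are 4 let-7 members and miR-30e-5p.

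The let-7 family, which restrains growth genes in differentiated cells and is held down by Lin28 proteins in stem cells, summed to 17807 and 33361 RPM with CAG-EGFP-MosIR and to 31528 and 32572 RPM with U6-MosIR. CAG-EGFP-MosIR replicate 1 was the low library. It was below replicate 2 for 9 of the 9 tested members, with a median log2 ratio of -0.59. The most abundant member, let-7f-5p, had 37009 CPM in CAG-EGFP-MosIR replicate 1 and 70509 in replicate 2, and 64588 and 59763 with U6-MosIR. For let-7a-5p the values were 24466 and 43446 with CAG-EGFP-MosIR and 35582 and 33778 with U6-MosIR. Both U6-MosIR libraries fell between the CAG-EGFP-MosIR duplicates for 7 of the 9 members.

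No let-7 member was separated by plasmid in normalised CPM, against 14.2% higher and 11.7% lower of all tested miRNAs. Their log2 fold changes ran from -0.33 (SE 0.25) for let-7b-5p, with 2811 and 4042 against 2886 and 2566 CPM, to 0.35 (SE 0.23) for miR-98-5p, with 2746 and 4321 against 4755 and 4227 CPM. The median was 0.03, beside 0.01 over all tested miRNAs. Its direction was set by the choice of the CAG-EGFP-MosIR library. Without CAG-EGFP-MosIR replicate 1 the median of the 9 members was -0.35, and without CAG-EGFP-MosIR replicate 2 it was 0.42. For let-7f-5p the log2 fold change of 0.21 (SE 0.27) became -0.21 and 0.78 in the same order.

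**Figure D4:**
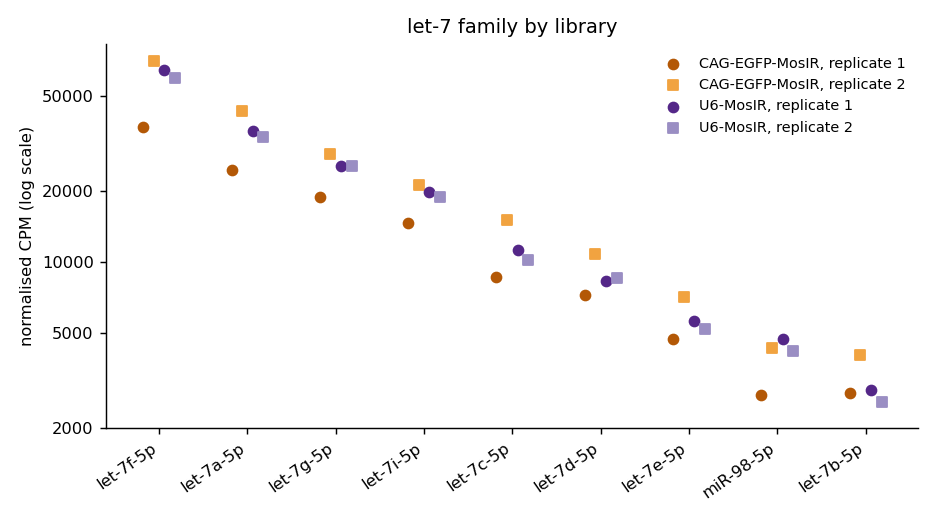
Normalised CPM, on a log scale, of the 9 tested let-7 family members in each of the 4 Mos libraries; 1 point per library. CAG-EGFP-MosIR replicate 1 is the lowest library for each member but let-7b-5p, and the U6-MosIR duplicates lie close together, as for let-7f-5p at 64588 and 59763 CPM.

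The miR-30 family shares the seed GUAAACA in the members with a matched sequence and was abundant, with sums of 7890 and 8690.4 RPM with CAG-EGFP-MosIR and 10580.0 and 9812 RPM with U6-MosIR. All 5 members overlapped between the plasmids in normalised CPM, beside 267 of all 360 tested miRNAs. miR-30e-5p had 20076 and 15647 CPM with CAG-EGFP-MosIR and 21953 and 18213 CPM with U6-MosIR. miR-30a-5p had 15419 and 16747 against 17987 and 12939.9 CPM. miR-30d-5p had 10439 and 13808 against 12831 and 11117 CPM, and miR-30c-5p had 6226 and 5901 against 5591 and 6761 CPM. miR-30b-5p was the least abundant, with 1567 and 1279.9 against 1359.6 and 1706 CPM. The list's log2 fold changes ran from -0.06 to 0.17 with a median of 0.03, so that none was as large as its SE.

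In the miR-17 family and its clusters, 9 of 13 miRNAs were tested and 2 were higher in both U6-MosIR libraries, miR-19a-3p and miR-19b-3p, beside 14.2% of all tested miRNAs. The list's median log2 fold change was 0.04. Its most abundant members, miR-92a-3p with 13602 and 16015 against 13627 and 13582 CPM and miR-93-5p with 7469 and 6631 against 6984 and 5908 CPM, overlapped between the plasmids. miR-25-3p and miR-20a-5p overlapped too, with 6871 and 8511 against 7704 and 6097 CPM and with 3823 and 3707 against 3991 and 3774 CPM. The miR-15 and miR-16 family, which limits the cell cycle, had 6 of 6 miRNAs tested and a median of 0.09. Of these 6, 0 were separated, beside 14.2% higher and 11.7% lower of all tested miRNAs. All 6 were higher in CAG-EGFP-MosIR replicate 1 than in replicate 2, with a median log2 ratio of 0.47. miR-16-5p had 18481 and 14269 CPM with CAG-EGFP-MosIR and 13780.3 and 16807 CPM with U6-MosIR, and miR-15b-5p had 5487 and 4711 against 4722 and 6406 CPM.

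The 3 miR-29 miRNAs likewise differed more within CAG-EGFP-MosIR than between plasmids. miR-29c-3p had 211 and 80.9 CPM with CAG-EGFP-MosIR and 125 and 135 CPM with U6-MosIR, and miR-29b-3p had 454 and 221 against 287 and 325 CPM. The median log2 fold change of the list was -0.14 and was 0.44 without CAG-EGFP-MosIR replicate 1. The miR-34 family, induced by p53 after DNA damage, had 4 of 4 miRNAs tested and 0 separated. Of all tested miRNAs, 14.2% were higher and 11.7% lower in both U6-MosIR libraries. The family's median log2 fold change was 0.11, and it was -0.12 without CAG-EGFP-MosIR replicate 2. The most abundant was miR-34c-5p, with 5951 and 4363 against 5323 and 6279 CPM. miR-34a-5p had 1200.2 and 917 against 1083 and 1171 CPM.

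The paired clusters of miR-23, miR-27 and miR-24 had 5 of 5 miRNAs tested and 0 separated, with a median of -0.05. Over all tested miRNAs, 14.2% were higher and 11.7% lower in both U6-MosIR libraries. miR-23a-3p had 16104 and 15388 CPM with CAG-EGFP-MosIR and 15590.4 and 16086 CPM with U6-MosIR. miR-24-3p had 20535 and 16523 against 16178 and 16576 CPM, and miR-27a-3p had 17723 and 12857 against 13253 and 13704 CPM. Of the miR-125, miR-99 and miR-100 list, 4 of 5 were tested and 1 was separated. This was miR-125a-5p, with 8112 and 7834 CPM with CAG-EGFP-MosIR and 5855 and 7204 CPM with U6-MosIR. The list's median was -0.15. The cluster on chromosome 17 that yields miR-125a, miR-99b and let-7e had 6 tested arms, 0 of them with a positive log2 fold change and 3 lower in both U6-MosIR libraries, with a median of -0.17, beside 11.7% lower and 190 of 360 positive over all tested miRNAs. It was picked after its values were seen. miR-99b-5p, with 7183 and 10550.0 against 7989 and 7652 CPM, overlapped.

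Long dsRNA can set off interferon and NF-kB signalling, and miRNAs known to respond to these pathways were therefore listed. Of 8, 6 were tested, 0 passed the test, 0 were higher and 1 was lower in both U6-MosIR libraries, near the 14.2% and 11.7% of all tested miRNAs, and the median log2 fold change was -0.01. The lower one was miR-155-5p, with 742 and 822 CPM with CAG-EGFP-MosIR and 733 and 704 CPM with U6-MosIR. The nearest libraries of the 2 plasmids thus differed little. miR-146b-5p, a feedback inhibitor of NF-kB signalling as part of the miR-146 family, had 1441 and 2023 against 1882 and 1518 CPM. miR-203-3p had 188 and 259.8 against 295 and 219 CPM. miR-147-3p was low, with 45 and 39 counts with CAG-EGFP-MosIR and 63 and 47 with U6-MosIR. Messenger RNAs of these pathways were not measured.

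miRNAs that reach Dicer without Drosha were listed as a group of their own. Of 6, 4 were tested, 2 were lower in both U6-MosIR libraries and 0 were higher, beside 11.7% lower and 14.2% higher over all tested miRNAs. The mirtron miR-877-5p, an intron of *Abcf1* at chr17:35960795-35960814, had 13.0 and 23.8 CPM with CAG-EGFP-MosIR and 9.39 and 8.44 CPM with U6-MosIR (log2 fold change -1.05, SE 0.34, edgeR adjusted p = 0.303), from 27, 57, 27 and 23 counts. The log2 fold change was -1.44 without CAG-EGFP-MosIR replicate 1, and it was then called. miR-320-3p had 709 and 832 against 655 and 619.8 CPM. miR-484 overlapped, with 674 and 646 against 634 and 713 CPM. The list's median was -0.49, with miR-702-3p at 3, 17, 11 and 4 counts. It was -0.16 at 10 RPM or more, -0.92 without CAG-EGFP-MosIR replicate 1 and -0.05 without CAG-EGFP-MosIR replicate 2.

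Of the listed fibroblast and mesenchyme miRNAs, 1 of 12 was higher and 1 lower in both U6-MosIR libraries, miR-21a-5p and miR-214-3p, beside 14.2% and 11.7% of all tested miRNAs, and the median log2 fold change was 0.03. miR-143-3p, abundant in smooth muscle and fibroblasts, had 6980.4 and 8785 against 11275 and 6862 CPM. miR-221-3p had 5654 and 6625 against 6247 and 6391 CPM. Among markers of other cells, blood markers summed to at most 0.815 RPM in any Mos library and the muscle list to at most 1.77 RPM. The liver marker miR-122-5p had 6 to 8 counts per library. Of 8 embryonic stem cell miRNAs, 7 had 0 counts in all 4 Mos libraries and miR-295-3p had 1 count. The neuronal list summed to 106 and 164 RPM with CAG-EGFP-MosIR and to 184 and 194 RPM with U6-MosIR, nearly all of it miR-9-5p, whereas miR-124-3p had 2 and 3 counts against 7 and 14. The epithelial list summed to 30.2 and 44.1 against 53.5 and 44.4 RPM, mostly miR-203-3p, with miR-200b-3p at 6 to 12 counts. The part of these miRNAs in the results was not tested.

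Members of a seed family compete for the same sites, so families were also summed. Only names with a matched sequence have a seed here, so some sums leave out members, such as miR-30b-5p and miR-30d-5p. Of the 15 most abundant seed families, 6 were higher in both U6-MosIR libraries in RPM and 0 were lower, against 42.8% and 3.89% of single miRNAs. The family of miR-21a-5p was the most abundant, with 35312 and 44958 RPM with CAG-EGFP-MosIR and 62594 and 54095 RPM with U6-MosIR, a ratio of means of 1.45. The ratios of the other 14 lay between 1.06 and 1.25. That of the GAGGUAG family was 1.25 with overlapping libraries, and that of UCAAGUA, which is miR-26a-5p and miR-26b-5p, was 1.25 without overlap.

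The arms of 1 hairpin come from the same precursor and give a ratio that needs no library size. Arms were paired by name, however, and a name can hold counts that other hairpins share. In CAG-EGFP-MosIR replicate 1, for example, miR-199b-3p had 11614 counts and miR-199a-3p 11627. Such a ratio may mix hairpins. In 69 hairpins both arms had at least 40 counts in every Mos library. The 5p to 3p ratio was separated by plasmid in 9 of them (13%), 6 with a higher and 3 with a lower ratio with U6-MosIR. The median change of the log2 ratio was 0.03 and the median size of a change 0.13. The median difference between duplicates was 0.49 with CAG-EGFP-MosIR and 0.27 with U6-MosIR. A change was taken between means of 2 libraries and a duplicate difference between single libraries, so their sizes are not directly comparable. The same arm was the more abundant one in all 4 libraries in 67 of the 69. The 5p to 3p ratio of miR-340 was 4.004 and 3.48 with CAG-EGFP-MosIR and 6.24 and 5.21 with U6-MosIR. miR-340-5p was thus set apart from its own partner miR-340-3p, which had 124 and 157 against 145 and 141 CPM.

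The ratio of miR-708 was 1.44 and 1.09 with CAG-EGFP-MosIR and 1.96 and 2.35 with U6-MosIR, with 40 to 48 counts of the 3p arm. In miR-331 it was 0.925 and 1.17 against 0.840 and 0.558. In miR-214 the 3p arm was 13.99 and 15.4 times the 5p arm with CAG-EGFP-MosIR and 11.8 and 8.11 times with U6-MosIR. In miR-130b the 3p arm was 2.54 and 2.03 times the 5p arm with CAG-EGFP-MosIR and 1.65 and 1.67 times with U6-MosIR. These 5 hairpins had the largest changes without overlap, from 0.45 to 0.78 on the log2 scale in either direction.

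The CAG-EGFP-MosIR duplicates had the widest spread of any plasmid. At 100 RPM or more, 16 of 96 miRNAs differed by more than 1.5-fold between these duplicates, against 1 of 96 between the U6-MosIR duplicates. In the pairings of a single CAG-EGFP-MosIR with a single U6-MosIR library, 7, 3, 3 and 4 of 96 did. In the fit, which takes 2 libraries per plasmid together, 2 of 96 differed by that much between the plasmids. The median size of a log2 ratio was 0.31 between the CAG-EGFP-MosIR duplicates. Between plasmids it was 0.30 for the 2 libraries numbered 1 and 0.24 for those numbered 2, but 0.14 for CAG-EGFP-MosIR replicate 1 against U6-MosIR replicate 2 and 0.17 for CAG-EGFP-MosIR replicate 2 against U6-MosIR replicate 1. Some libraries of different plasmids were thus more alike than the duplicates of CAG-EGFP-MosIR.

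The 6 miRNAs that differed most between the CAG-EGFP-MosIR duplicates at this level were 3 let-7 members, miR-15a-5p, miR-183-5p and miR-5121. miR-15a-5p was higher in replicate 1, at 865 against 395 CPM, and had 659 and 716 CPM with U6-MosIR. miR-183-5p, a miRNA of sensory cells that is also expressed in many tumours, was lower in replicate 1, at 3068 against 5890.3 CPM, and had 5564 and 4139 CPM with U6-MosIR. miR-5121 overlaps the snoRNA gene *Snord33* on the same strand, so that reads of the snoRNA and of the miRNA cannot be told apart. It was higher in replicate 1, at 6847 against 4006 CPM, with 4538 and 5778 CPM with U6-MosIR. In all 3 the U6-MosIR libraries lay between those of CAG-EGFP-MosIR. The 8 calls made without CAG-EGFP-MosIR replicate 1 were miR-190a-5p, miR-542-3p, miR-19a-3p and miR-15a-5p, higher with U6-MosIR, and miR-5126, miR-3535, miR-877-5p and miR-365-2-5p, lower. For miR-15a-5p the library left out held its highest level. Without CAG-EGFP-MosIR replicate 2 there were 0 calls at an adjusted p under 0.05 and 35 at an unadjusted p under 0.05.

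The same pair of designs with a Lin28 hairpin gave a second set of values in 4 other libraries. There the miRNA share of perfectly mapped reads was 13.6% and 10.9% with CAG-EGFP-Lin28IR and 18.8% and 22.1% with U6-Lin28aIR, a difference of 8.23 percentage points beside 3.85 for Mos. Within the 18–30-nt class, reads of 21–23 nt were 50.7% and 51.2% with CAG-EGFP-Lin28IR and 58.9% and 60.6% with U6-Lin28aIR. Inside this class the 2 hairpins thus gave similar differences, 8.02 points for Mos and 8.80 for Lin28, whereas the share of the class in the library differed by 0.521 points for Mos and 6.30 for Lin28. These differences between hairpins were not tested.

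Of the 360 miRNAs, 2 (0.556%) were called with the Lin28 hairpin. They were miR-5126, with a log2 fold change of -1.01 (SE 0.20, edgeR adjusted p = 0.0117), and miR-3535, with -1.60 (SE 0.24, edgeR adjusted p = 0.000577), the same 2 that were lowest with Mos at 10 RPM or more. The difference between the hairpins was tested in the same fit, where 0 of 360 (0%) passed and 13 had an unadjusted p under 0.05. For miR-5126 the Mos change minus the Lin28 change was 0.09 and for miR-3535 it was 0.96, and the smallest adjusted p of this test was 0.994. Without CAG-EGFP-MosIR replicate 1, 3 miRNAs passed it, miR-32-5p, miR-374b-5p and miR-5121.

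Across the 188 miRNAs with at least 10 RPM, Pearson's r between the Mos and the Lin28 log2 fold changes was 0.54 and Spearman's rho 0.50. The 2 comparisons share no library, but they share a normalisation and the same cell line, and miRNAs are no independent replicates. Of the 20 miRNAs higher in both U6-MosIR libraries, 19 had a positive log2 fold change with Lin28, and 7 (35%) were higher in both U6-Lin28aIR libraries, beside 42 (22.3%) of all 188. Of the 21 that were lower, 18 had a negative log2 fold change with Lin28, and 10 (47.6%) were lower in both U6-Lin28aIR libraries, beside 38 (20.2%) of all 188. Over all 188 the sign was the same with both hairpins in 126. miR-542-3p was among those with little change in Lin28, 0.02 beside 0.66 with Mos, and miR-190a-5p had 0.34 beside 0.67.

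**Figure D5:**
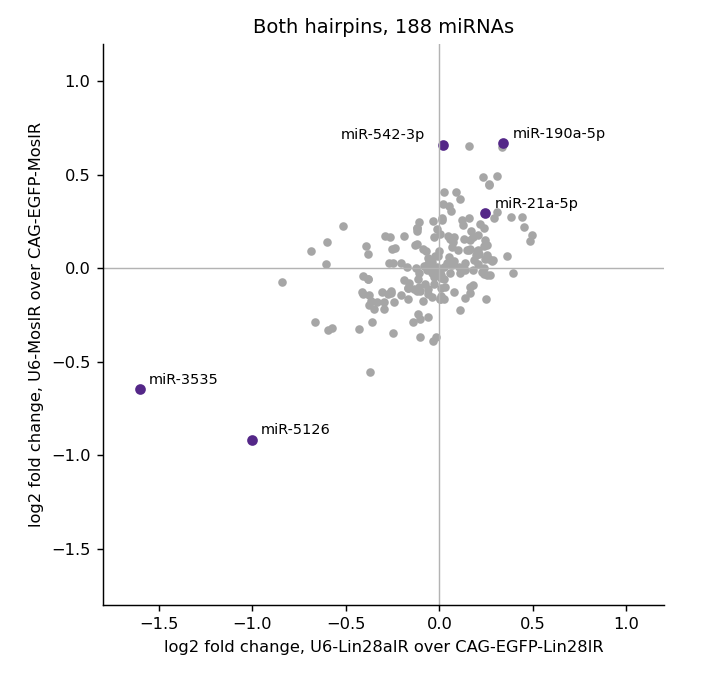
log2 fold change of the U6 over the CAG-EGFP plasmid with the Mos hairpin (vertical) against the Lin28 hairpin (horizontal), for 188 miRNAs with a mean of at least 10 RPM; 1 point per miRNA. miR-5126 (-0.92 with Mos, -1.01 with Lin28) and miR-3535 (-0.65 and -1.60) lie apart at the lower left.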

How the data were processed

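The authors made small RNA libraries from total RNA with the NEXTflex Small RNA-Seq Kit v3, trimmed adapters and flanking random bases, and mapped the reads to mm10 with the plasmid sequences added, with STAR 2.5.3a, allowing 2 mismatches and keeping every multimapping read. The authors deposited raw counts per locus of each mature miRNA, for 0, 1 or 2 mismatches, and counts of mapped reads per library in 3 length classes. The rule by which reads were given to miRNAs is not stated in the sources used here. From the counts without mismatches, a mature name was taken once, at the locus that summed highest across all 8 libraries, since multimapping reads appear at each locus. A read that maps to several names may count under each, so miRNA shares are shares of counts.

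The quasi-likelihood test of edgeR 4.0.16 (R 4.3.3; robust, TMM, filterByExpr) was run in 1 fit of 4 plasmids over 8 libraries, with Benjamini-Hochberg adjustment over 360 miRNAs and a threshold of 0.05. The fit was checked on simulated counts. DESeq2 1.42.0 and other alternatives are given in the closing section. Shares were compared by exact permutation tests. The miRNAs named are those past the threshold, the 10 most abundant, the 8 highest and 8 lowest by log2 fold change at 10 RPM or more without overlap between plasmids, the 6 that differ most between the CAG-EGFP-MosIR duplicates at 100 RPM or more, let-7 and miR-30 members, up to 4 members of each other list, and the 5 hairpins with the largest change of arm ratio. The members and the lists were chosen with earlier results of these data known. Sequences matched RefSeq on GRCm38.p6 for 1673 of 1966 names, and genes are those of GENCODE M21. Small RNAs of the hairpins were not analysed here.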

Additional observations from a re-analysis of the deposited data

How the results depend on the processing

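The number of miRNAs called between the Mos plasmids, 0 in the reported fit, was 1 with DESeq2, 1 with no filter on low counts and 1 with a mean of at least 10 RPM, each time miR-5126. Leaving out 1 library gave 0 to 8 calls, the 8 without CAG-EGFP-MosIR replicate 1, and the difference between the hairpins gave 0 to 3. The count stayed at 0 with deposited library sizes, 1 or 2 mismatches, the 4 Mos libraries alone, no robust estimation and summed loci. Same-numbered libraries of the 2 plasmids did not deviate together (r = -0.44 over 187 miRNAs), and the replicate block gave 0 calls, also with the Mos libraries only, where crossed replicate numbers as a block, chosen after seeing the data, gave 2. Of the 16 miRNAs at the 2 ends, 0 changed sign under the alternatives, the block fits of the Mos libraries only not counted. These miRNAs were chosen for large changes without overlap between the plasmids. Leaving out 1 library could therefore hardly change their sign, and their constancy is no support for them. For let-7f-5p the log2 fold change ran from -0.21 to 0.78 when 1 library was left out. Of the 80 miRNAs named, 46 changed sign when some Mos library was left out and 23 with deposited library sizes. Of 143 medians of lists under the alternatives, 16 moved by more than the spread between libraries. The miRNA share and the 21–23-nt share kept their direction under every alternative. Neither share overlapped between the plasmids, so leaving out 1 library could not reverse it, and the other alternatives used the same libraries. With 2 libraries per plasmid and a median SE of 0.24, a 1.89-fold difference (miR-5126) missed the threshold after adjustment in the reported fit.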
